A study of Mus musculus with 20 samples.

Results

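The 10 genes described here encode neuropeptides of the amygdala, and they were chosen by symbol: Penk, Pdyn, Sst, Vip, Npy, Cck, Tac1, Cartpt, Crh and Tac2, which are 10 of the 31053 genes in the count tables. They were followed in droplet single-cell libraries of the basolateral amygdala (BLA) from 10 wild-type male C57BL/6 mice, 13 weeks old, with 1 library per mouse. Mice drank a control solution, labelled BCD for 2-hydroxypropyl cyclodextrin, or corticosterone (CORT, 35 µg/ml) for 6 weeks, were then injected with saline (Sal) or ketamine (Ket, 10 mg/kg, i.p.), and tissue was taken 24 h later. The labels name BCD for the control groups, while the methods text of the single-cell experiment speaks of plain drinking water, so what the controls drank is not settled. The groups were BCD/Sal (mice 9901 and 9947, n = 2), BCD/Ket (9946, 9949 and 9986, n = 3), CORT/Sal (9969 and 9970, n = 2) and CORT/Ket (9967, 9968 and 9971, n = 3). Corticosterone intake models the hormonal side of chronic stress only. The tissue label names the BLA, while the protocol text that goes with the same libraries speaks of prefrontal cortex.

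Neuropeptides are cut from larger precursor proteins, packed into dense-core vesicles and released beside the fast transmitters GABA and glutamate. In the amygdala most of them mark GABA neurons: somatostatin and neuropeptide Y are classic products of interneurons that contact dendrites, vasoactive intestinal peptide of interneurons that inhibit other interneurons, and enkephalin, dynorphin and substance P of the medium spiny type of projection neuron, which also fills the neighbouring striatum. Cholecystokinin is made by both pyramidal cells and a set of basket cells, and corticotropin-releasing hormone starts the hormonal stress response.

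On the NCBIM37 build the genes lie on 8 chromosomes: Penk (preproenkephalin) at chr4:4060678-4065966, Pdyn (prodynorphin) at chr2:129512301-129525580, Sst (somatostatin) at chr16:23889667-23890930, Vip (vasoactive intestinal peptide) at chr10:4698927-4707323, Npy (neuropeptide Y) at chr6:49772709-49779506, Cck (cholecystokinin) at chr9:121398943-121404807, Tac1 (substance P and neurokinin A) at chr6:7505071-7512973, Cartpt (the cocaine- and amphetamine-regulated transcript peptide) at chr13:100668439-100670638, Crh (corticotropin-releasing hormone) at chr3:19593401-19595396 and Tac2 (neurokinin B) at chr10:127162448-127168823. All are protein-coding.

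A sequence feature that several of these genes are known for is the cAMP response element, the palindrome TGACGTCA that was first described in the somatostatin promoter. RefSeq promoter sequences (GRCm38.p6) were matched for 8 of the 10 genes. Penk and Crh had no matched sequence and were not searched. In the 250 bases before the start, the palindrome was found in Sst and Cartpt, and TGACGTC, a shorter form that the palindrome contains, was found on either strand in Sst, Cartpt and Vip. Of all 32851 promoters, 508 (1.55%) held the palindrome and 914 (2.78%) the shorter form. The matches are shown because the promoters of these genes are the textbook example of a response element in peptide genes, and the element is in capitals.
Cartpt, chr13:99900762-99900821, minus strand: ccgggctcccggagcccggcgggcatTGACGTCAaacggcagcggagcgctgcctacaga
Sst, chr16:23890859-23890918, minus strand: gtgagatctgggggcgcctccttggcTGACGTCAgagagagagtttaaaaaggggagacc
Vip, chr10:5639113-5639171, plus strand: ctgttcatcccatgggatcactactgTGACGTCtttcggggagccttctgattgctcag
The element lay 41 to 48 bases before the start in Sst, 73 to 79 in Vip and 105 to 112 in Cartpt. These are matches of letters, and binding was not measured.

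The 10 libraries held 28722 barcodes, 626 to 4604 each, with 811628 to 7281768 unique molecular identifiers (UMIs, each a counted RNA molecule) per library. Barcodes with at most 12.5% mitochondrial UMIs and at least 200 genes were kept (8305). Mouse 9970 of CORT/Sal stood apart: its median mitochondrial share was 3.22% against 33.2% to 57.9% in the other 9 libraries, 97.1% of its barcodes were kept against 16.8% to 31.0%, and 1 cluster of 2348 barcodes came to 99.8% from this mouse. That cluster had 5 of 6 erythroid and 12 of 20 excitatory markers raised, and it was given no name and left out of all cell classes because over 90% of it came from 1 library. Sst was found in 39.6%, Cck in 51.1% and Npy in 17.9% of its barcodes. Shares of a gene's UMIs by class are given without this mouse. Fits with CORT/Sal in excitatory neurons and whole libraries include mouse 9970, unless 1 mouse at a time was left out. Whole libraries count all its barcodes. Among kept barcodes, 46 carried a barcode sequence found in more than 1 library. Of the 8305, 1415 (17.0%) were neurons by markers (1100 excitatory and 315 inhibitory) and 4525 were non-neuronal. The inhibitory cluster held 137 interneuron-like barcodes and 159 striatal-like barcodes, led by medium spiny markers, and 19 that were neither, and the marker genes of both kinds were present (Gad1, which makes GABA, in 60% and Slc17a7, the vesicular glutamate transporter, in 6.03% of inhibitory barcodes, against 2.45% and 66.8% of excitatory ones).

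Every one of the 10 peptide genes was found in a larger share of neurons than of all non-neuronal barcodes pooled. After each barcode was thinned to 1000 UMIs, the share of barcodes with a UMI was higher in the 941 neurons than in the 3240 non-neuronal barcodes for every gene, also at 500 UMIs and without thinning. In percentage points the contrast was widest for the genes that reach many neurons: Cck was found in 20.4% of neurons against 0.864% of non-neuronal barcodes, and Penk in 9.25% against 0.0926%. Tac1 reached 3.08% of neurons, Npy 2.44%, Sst 2.13%, Cartpt 1.49%, Vip 1.38%, Tac2 1.28%, Pdyn 1.17% and Crh 0.531%. In non-neuronal barcodes the same shares were 0.617% for Tac1, 0.463% for Npy, 0.216% for Sst, 0.154% for Vip and 0.0309% for Pdyn, and none of the 3240 held Cartpt, Crh or Tac2, which allows a share of up to 0.0926% (3 counts of the total). Before thinning, median depth was 1532 UMIs in neurons and 1529 in non-neuronal barcodes. Of the 20 non-neuronal barcodes with Tac1, 17 were oligodendrocyte precursor cells, a class in which the Tac1 share was above that of neurons (6.83%). The part of free RNA in the non-neuronal shares was not tested, and intervals and floors cover counting error only.

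**Figure D1:**
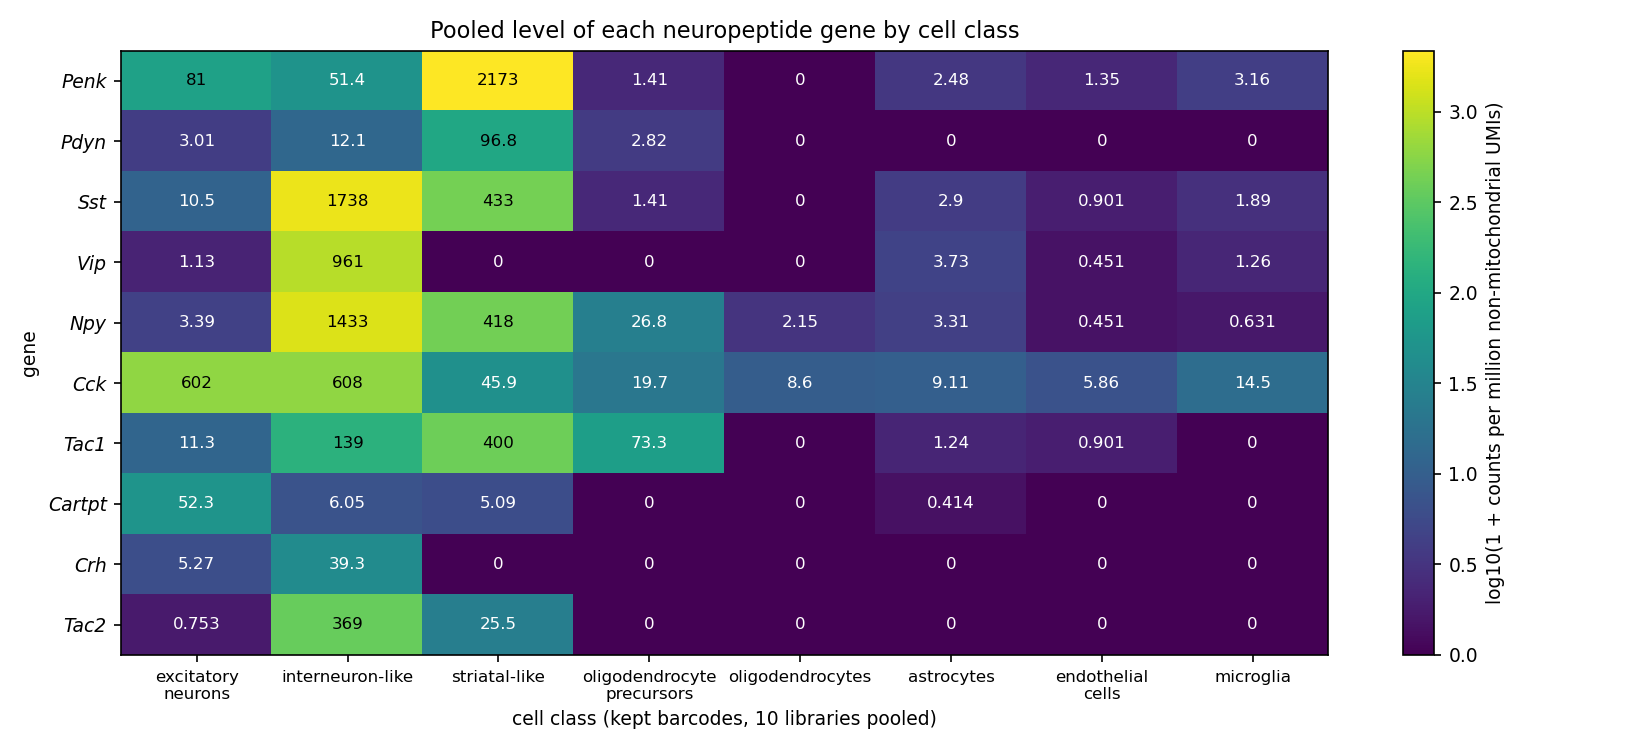
Colour gives log10(1 + CPM, counts per 1000000 non-mitochondrial UMIs) for each gene (rows) in each cell class (columns), with kept barcodes of 10 libraries pooled and the value printed in each box. Penk is highest in striatal-like barcodes (2173), Sst, Vip, Npy and Tac2 in interneuron-like barcodes, Cartpt in excitatory neurons (52.3), and Cck is at 602 in excitatory and 608 in interneuron-like barcodes.

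The genes divided among 3 neuron classes. Levels are given as counts per 1000000 non-mitochondrial UMIs (CPM) of a class, pooled over libraries, and since counts were not divided by gene length they are compared between classes and not between genes. The opioid precursor Penk stood at 2173 CPM in striatal-like barcodes, 51.4 in interneuron-like barcodes and 81.0 in excitatory neurons, and leaving out mouse 9970, 77.1% of its 1105 UMIs were in striatal-like barcodes. Mouse 9947 held 705 of the 853 Penk UMIs of the class, and without this mouse the level was 713 CPM, still above both other classes. Pdyn, the other opioid precursor, followed the same split at 96.8, 12.1 and 3.01 CPM, with 73.1% of its 52 UMIs in striatal-like barcodes, and stood at 53.0 CPM there without mouse 9947. Tac1, the substance P precursor, stood at 400 CPM in striatal-like and 139 in interneuron-like barcodes, with 53.2% of 295 UMIs in the former. Without mouse 9947 the interneuron-like level of Tac1 was 73.5 CPM.

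Sst, Vip, Npy and Tac2 had most of their UMIs in the interneuron-like barcodes. Sst stood there at 1738 CPM, with 72.3% of its 795 UMIs outside mouse 9970. Vip stood at 961 CPM with 95.5% of 333 UMIs and had no UMI in any striatal-like barcode. Of the 318 Vip UMIs in interneuron-like barcodes, 221 were from mouse 9949, and without it the level was 313 CPM. Npy stood at 1433 CPM with 68.7% of 690 UMIs, and Tac2 at 369 CPM with 91.0% of 134 UMIs. By barcodes the split of Tac2 was narrower: it was found in 8 of 137 interneuron-like (5.84%) and 6 of 159 striatal-like ones (3.77%), without thinning. The Npy level was 661 CPM without mouse 9947. That of Tac2 was 119 CPM without mouse 9949 and 560 CPM without mouse 9947, which held 113070 UMIs in interneuron-like barcodes and none of Tac2. The Sst and Npy levels of striatal-like barcodes (433 and 418 CPM) came almost whole from a single barcode of mouse 9947, which held 164 Sst and 159 Npy UMIs of 5319 and was placed with the striatal-like barcodes by its other genes, and both were 24.1 CPM without this mouse.

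Cck and Cartpt were the excitatory members. Of the 1907 Cck UMIs outside mouse 9970, 83.2% were in excitatory neurons, and of the 145 Cartpt UMIs, 95.9%. Cck was also present in interneuron-like barcodes at 608 CPM, beside 602 CPM in excitatory neurons, and at 345 CPM without mouse 9949. Crh had 27 UMIs outside mouse 9970, of which 48.1% were in interneuron-like barcodes and 51.9% in excitatory neurons, and none were in striatal-like barcodes. The classes differ in size: Crh was found in 8 of 137 interneuron-like barcodes (5.84%) and in 11 of 1100 excitatory ones (1%), without thinning. Of the 14 excitatory UMIs, 8 were from mouse 9947.

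Penk also reached excitatory neurons more often than the other mainly inhibitory genes. It had 215 UMIs in 78 of 1100 excitatory barcodes (7.09%), with up to 19 in 1 barcode, against 28 UMIs in 15 barcodes for Sst and 3 UMIs in 3 barcodes for Vip. Of the 98 neurons with at least 2 Penk UMIs, 59 were inhibitory, whereas of those with at least 2 Vip UMIs 16 of 16 were inhibitory, of Pdyn 12 of 12, of Tac2 10 of 10, of Npy 24 of 25, of Sst 23 of 24 and of Tac1 31 of 35. Adora2a, the adenosine receptor of enkephalin neurons, was found in 0.0909% of excitatory barcodes.

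A small number of barcodes carried most of the molecules of several genes. Outside mouse 9970, 50% or more of all Tac2 UMIs were in 1 barcode, of Vip in 2, of Sst in 3, of Npy in 3, of Cartpt in 5, of Crh in 6 and of Pdyn in 7. For Penk it took 12 barcodes, for Tac1 14 and for Cck 38. The largest single counts were 197 for Sst, 182 for Penk, 177 for Npy, 107 for Vip, 93 for Cck, 77 for Tac2, 33 for Cartpt, 23 for Tac1, 8 for Pdyn and 3 for Crh. The exact Poisson intervals of single libraries cover counting error and not the chance of capturing such a barcode.

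**Figure D2:**
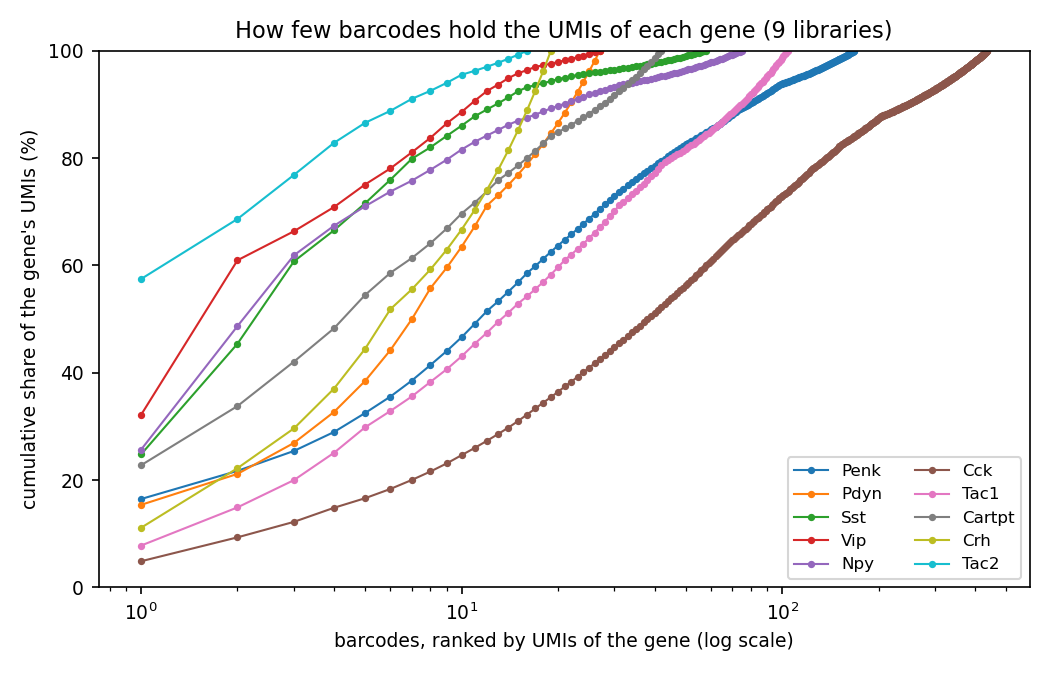
For each gene, the cumulative share of its UMIs (vertical axis, %) is drawn against kept barcodes ranked by their UMIs of that gene (horizontal axis, log scale), for 9 libraries without mouse 9970. The Tac2, Vip, Npy and Sst curves pass 60% within 3 barcodes (76.9%, 66.4%, 61.9% and 60.8%), while Cck reaches 24.6% at 10 barcodes.

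Most neurons showed no peptide gene or only 1. None of the 10 was detected in 58.4% of neurons, 1 in 31.0%, 2 in 7.99%, 3 in 2.05% and 4 or more in 0.495%. Inhibitory neurons were richer, with none in 41.3%, and 95.6% of non-neuronal barcodes had none. Detection at this depth misses many cells, so an absent UMI does not show that a neuron lacks the peptide.

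Where 2 genes met in 1 neuron, the leading pairs were ones known from interneurons (Sst with Npy) and from medium spiny neurons (Pdyn with Tac1). Co-detection was counted against the number given by the product of both genes' shares within each library, as a description. In 941 neurons thinned to 1000 UMIs, Sst and Npy met in 9 neurons from 6 libraries where shares alone gave 0.781, so that 45% of Sst neurons held Npy. Pdyn and Tac1 met in 8 neurons from 3 libraries where shares gave 0.720, which is 72.7% of Pdyn neurons. Vip and Tac2 met in 5 where shares gave 0.408. Of 45 pairs, 7 met in at least 3 neurons and at least 2 times as often as shares gave. The other 4 were Sst with Tac1 (3 neurons, 1.02 from shares), Cck with Tac2 (6, 2.78), Cck with Cartpt (6, 2.60) and Penk with Tac2 (3, 1.30, all from 1 library).

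Inhibitory neurons at full depth showed the same leading pairs. Among the 315 barcodes, Sst and Npy met in 15 neurons from 7 libraries (3.10 from shares) and Pdyn and Tac1 in 15 from 4 libraries (3.62). Vip met Cck in 11 (3.79), Tac2 in 5 (1.29) and Crh in 5 (0.981), and Crh met Tac2 in 4 (0.526). All 4 of Vip, Cck, Tac2 and Crh were found in an interneuron-like barcode of mouse 9968, with 6, 4, 15 and 3 UMIs of 2015. A single interneuron-like barcode of mouse 9949 held 107 Vip, 85 Cck, 77 Tac2 and 7 Npy UMIs of 11191, and no Crh UMI. The depth of this barcode lay far above the inhibitory median of 1978 UMIs, and whether it held more than 1 cell was not tested. Depth differed between neurons, and its part in the counts at full depth was not tested.

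**Figure D3:**
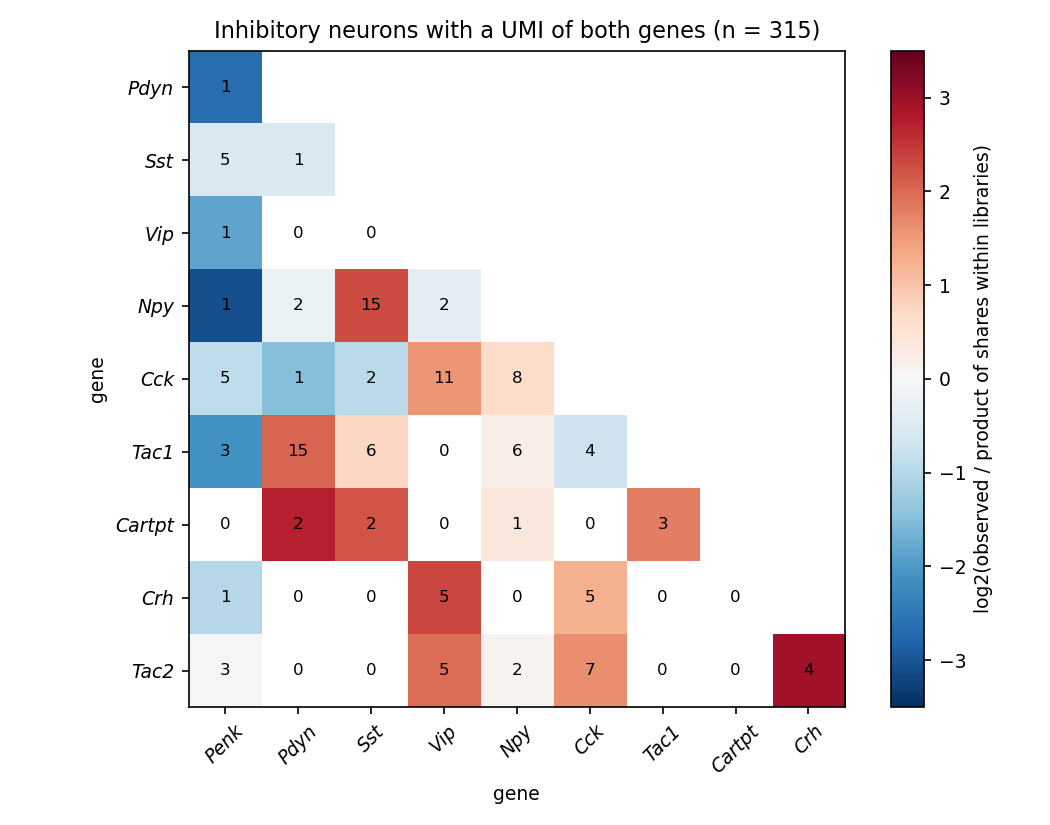
Each box counts the inhibitory neurons (n = 315, not thinned) with a UMI of both genes, and colour gives log2 of that count over the product of shares within libraries; boxes with 0 neurons are white. Sst with Npy and Pdyn with Tac1 are the fullest at 15 each, and Penk with Tac1 is on the low side at 3.

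The enkephalin and substance P genes kept apart. In the 159 striatal-like barcodes Pdyn and Tac1 met in 14 neurons where shares gave 4.18, and 93.3% of Pdyn barcodes held Tac1. Penk and Tac1 met in 3 where shares gave 13.6, although Penk was in 41.5% and Tac1 in 18.2% of these barcodes. As background, enkephalin is known from the indirect medium spiny type, and dynorphin and substance P from the direct type. Penk and Cck also met less often than shares gave among all thinned neurons (4 against 15.4), and the product of shares takes no account of the inhibitory and excitatory classes.

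Other genes in the same neurons drew the same types. They were counted at full depth, without thinning, and the part of depth in these shares was not tested. Among 98 neurons with at least 2 Penk UMIs, Adora2a was found in 28.6% against 0.380% of other neurons, and Drd2, the dopamine D2 receptor, in 13.3% against 0.607%. Drd1, the dopamine D1 receptor, was found in 91.7% of the 12 Pdyn neurons (5.70% of others), which came from 3 mice. The Drd1 share was 62.9% of the 35 Tac1 neurons (5% of others), and neither Drd2 nor Adora2a was found in any of those Tac1 neurons. With the same minimum of 2 UMIs for each gene, the 24 Sst neurons held Lhx6, a transcription factor of interneurons born in the medial ganglionic eminence, in 41.7% (1.37% of others) and Sox6, which acts after it, in 45.8% (2.52%).

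The Vip neurons carried another set. All 16 held Adarb2, a marker of interneurons from the caudal eminence (9.22% of other neurons), and 50% held Calb2, which encodes calretinin (2.43% of others). Of the 10 Tac2 neurons, 80% held Adarb2 (9.75% of others). Npy neurons (25) were mixed, with Lhx6 in 28% and Prox1, a factor of caudal types, in 44%. Of the 201 Cck neurons, 42.8% held Cnr1, the cannabinoid receptor (13.3% of others), and 21.9% Slc17a6, the second vesicular glutamate transporter (4.86% of others). These shares too were counted without thinning, and the part of depth was not tested. Of the 19 Cartpt neurons, 68.4% held Lmo3, a cofactor of amygdala projection neurons (17.4% of others).

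Ranked by likeness, Pdyn, Npy and Crh had another member as their closest gene, and the rest had a gene outside the 10. Likeness was the mean over libraries of Pearson's r of log counts across neurons, among 11029 genes in up to 10 libraries, and it is a description that depth shares across all genes of a barcode. Sst was most like Nxph1, a secreted protein of interneurons (0.44), then Npy (0.42) and Crhbp, the binding protein of corticotropin-releasing hormone (0.40). Npy was most like Sst (0.42) and Pnoc, the nociceptin precursor (0.40). Crh was most like Vip (0.40, over 5 libraries). Pdyn was most like Tac1 (0.37) and Drd1 (0.34), Tac1 most like Drd1 (0.38) and Penk most like Adora2a (0.43).

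Like Penk, the genes Vip, Tac2, Cck and Cartpt had no other member among their 3 closest genes. Vip was most like Adarb2 (0.40) and Igf1, a growth factor gene (0.35). Tac2 was most like Igf1 (0.38). Cck was most like the synaptic genes Rab3a (0.31) and Rtn1 (0.30), which are found in neurons at large, and no gene was more like Cartpt than Rgs20, a regulator of G-protein signalling, at 0.24.

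Outside neurons, Tac1 stood out in oligodendrocyte precursor cells, the dividing glia marked by Pdgfra. Of 406 such barcodes, 43 held Tac1 (10.6%, 52 UMIs, at most 3 per barcode), against 6 of 4119 other non-neuronal barcodes (0.146%). At 1000 UMIs the share was 6.83% (17 of 249 barcodes, exact 95% interval 4.03% to 10.7%), against 0.208% in astrocytes (0.0252% to 0.751%) and 0.141% in endothelial cells (0.00357% to 0.782%), and no microglial barcode held it (0 of 711, exact interval up to 0.517%). The interval of the precursor cells overlapped none of the other 3, but these intervals pool barcodes of all mice and leave out the spread between mice. The part of free RNA in this share was not tested.

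The Tac1 share in precursor cells varied between mice. It was 1 of 79 barcodes (1.27%) in mouse 9901 of BCD/Sal; 0 of 1 in 9946, 6 of 53 (11.3%) in 9949 and 6 of 78 (7.69%) in 9986 of BCD/Ket. It was 10 of 54 (18.5%) in 9969 of CORT/Sal, and 0 of 4 in 9967, 18 of 66 (27.3%) in 9968 and 2 of 71 (2.82%) in 9971 of CORT/Ket. Tac1 was thus seen in 6 of 8 libraries that held these cells. The ranges of BCD/Ket and CORT/Ket overlapped. BCD/Sal had such cells in mouse 9901 only, whose share was below all other libraries with at least 10 of them. After thinning to 1000 UMIs it was 0 of 21 in 9901, 2 of 42 in 9949 and 2 of 57 in 9986. The thinned counts were 8 of 47 in 9969, 0 of 1 in 9967, 5 of 60 in 9968 and 0 of 21 in 9971. The part of depth in the shares of precursor cells was not tested. Other neuronal genes were also seen in these cells: Gad1 in 11.3% (0.874% of other non-neuronal barcodes) and Rgs9, a striatal marker, in 8.37% (0.486%), while Gad2 was in 0.739% (0.874%) and Drd1 in 0.246% (0.0971%). Their part in the Tac1 share was not tested. Npy and Cck were each in 3.45% of the precursor cells. Pdgfra itself was in 91.4% of them.

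**Figure D4:**
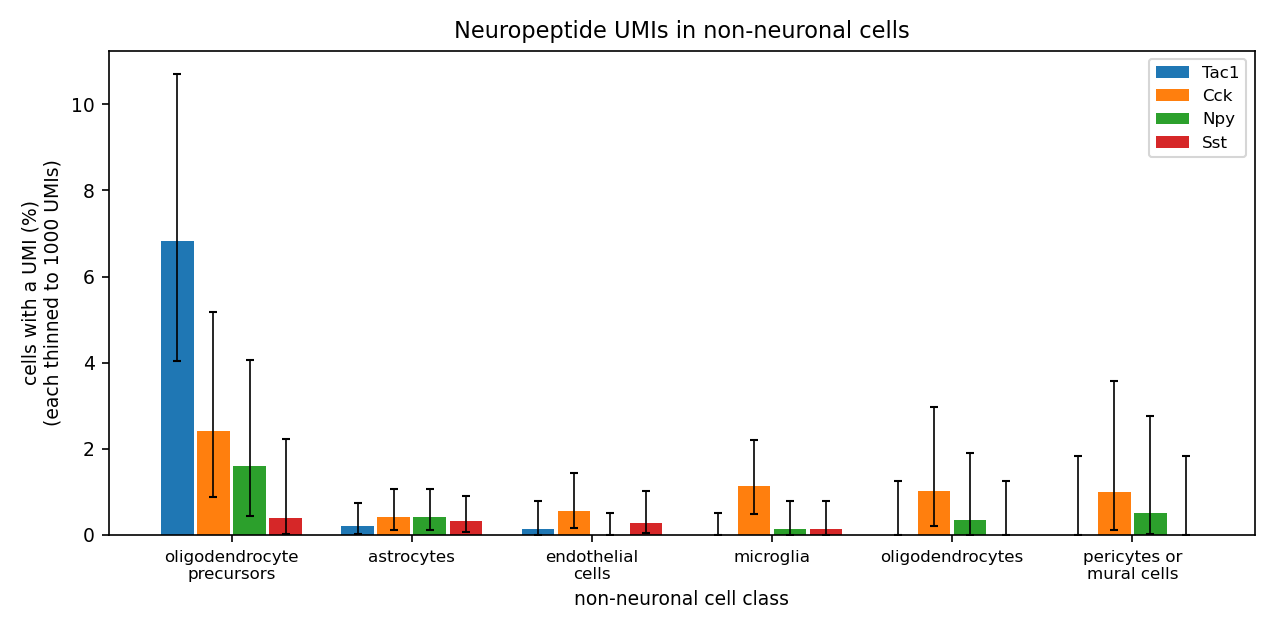
Bars give the share of barcodes (%) with a UMI of Tac1, Cck, Npy or Sst in each non-neuronal class after thinning to 1000 UMIs. Exact binomial 95% intervals pool all mice and cover counting error only. Tac1 in oligodendrocyte precursors (6.83%) stands above every other bar.

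The treatments were compared on counts summed per mouse and class, with edgeR's quasi-likelihood test and Benjamini-Hochberg adjustment over all genes tested. Where all mice of a group are said below to lie above those of another, the share of all genes that separate likewise is not given. Such a separation does not set a member apart. In excitatory neurons, where 6463 genes and 4 of the members (Penk, Sst, Cck and Cartpt) passed the filter on low counts, no member passed an adjusted p of 0.05 in any of 5 contrasts, and 0% of all genes did. At an unadjusted p under 0.05, 50 to 212 genes passed by edgeR and 15 to 79 by DESeq2, which also called none after adjustment. An edgeR p-value here does not rest only on the gene's own spread between mice. That spread, with 6 residual degrees of freedom, is moderated towards a spread estimated across the genes tested.

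Cck, the most widely detected member, varied within groups about as widely as between them. In excitatory neurons it stood at 482 and 691 CPM in BCD/Sal, at 517, 1210 and 847 in the BCD/Ket mice, 701 and 937 in the CORT/Sal mice and 559, 659 and 369 in the CORT/Ket mice. The mean was 697 ± 247 CPM (SD, n = 10). The 937 comes from mouse 9970, with 11 Cck UMIs in 32 barcodes. Every group overlapped at least 1 other. CORT/Sal overlapped only BCD/Ket, and both CORT/Sal mice lay above all BCD/Sal and CORT/Ket mice. Excitatory neurons formed 2 clusters of 771 and 329 barcodes, and 374 of the 771 were from mouse 9901. The log2 difference was 0.15 for CORT/Sal against BCD/Sal (95% interval -0.88 to 1.18), -0.35 for CORT/Ket against CORT/Sal (-1.31 to 0.60) and 0.50 for BCD/Ket against BCD/Sal (-0.41 to 1.41), so that each interval still holds a 2-fold change in 1 direction. The first of these differences turned to -0.17 without mouse 9901 and to -0.25 without mouse 9969.

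Cartpt, which encodes a peptide that acts on feeding and stress, differed widely between single mice. Its level in excitatory neurons was 31.6 and 173 CPM in BCD/Sal, 7.72, 0 and 12.2 in the BCD/Ket mice, 145 and 0 in the CORT/Sal mice and 0, 48.0 and 6.75 in the CORT/Ket mice. Both BCD/Sal mice were above all BCD/Ket mice, and 2 mice of other groups, 9968 and 9969, also lay above the lower BCD/Sal mouse. Counts of 0 were found in 31 barcodes (mouse 9949), 32 (9970) and 31 (9967) and allow, by the exact 95% Poisson bound, up to 35.4, 314 and 31.7 CPM.

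The fitted difference of Cartpt between BCD/Ket and BCD/Sal was -3.46 on the log2 scale (SE 0.95, edgeR adjusted p = 1.00). Among alternatives that kept 2 libraries in each group of the contrast, it was past the threshold only when no filter on low counts was used (edgeR adjusted p = 0.0132). Without mouse 9947, which leaves mouse 9901 alone in BCD/Sal, it was -1.89. Between CORT/Ket and CORT/Sal it was -3.26 (SE 0.96, edgeR adjusted p = 1.00), with an adjusted p of 0.0435 without the filter. That value came from mouse 9969, in which 1 barcode held 33 of 53 Cartpt UMIs. Without that mouse CORT/Sal would be mouse 9970 alone, with no Cartpt UMI, and neither the size nor the direction of the difference could be estimated.

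**Figure D5:**
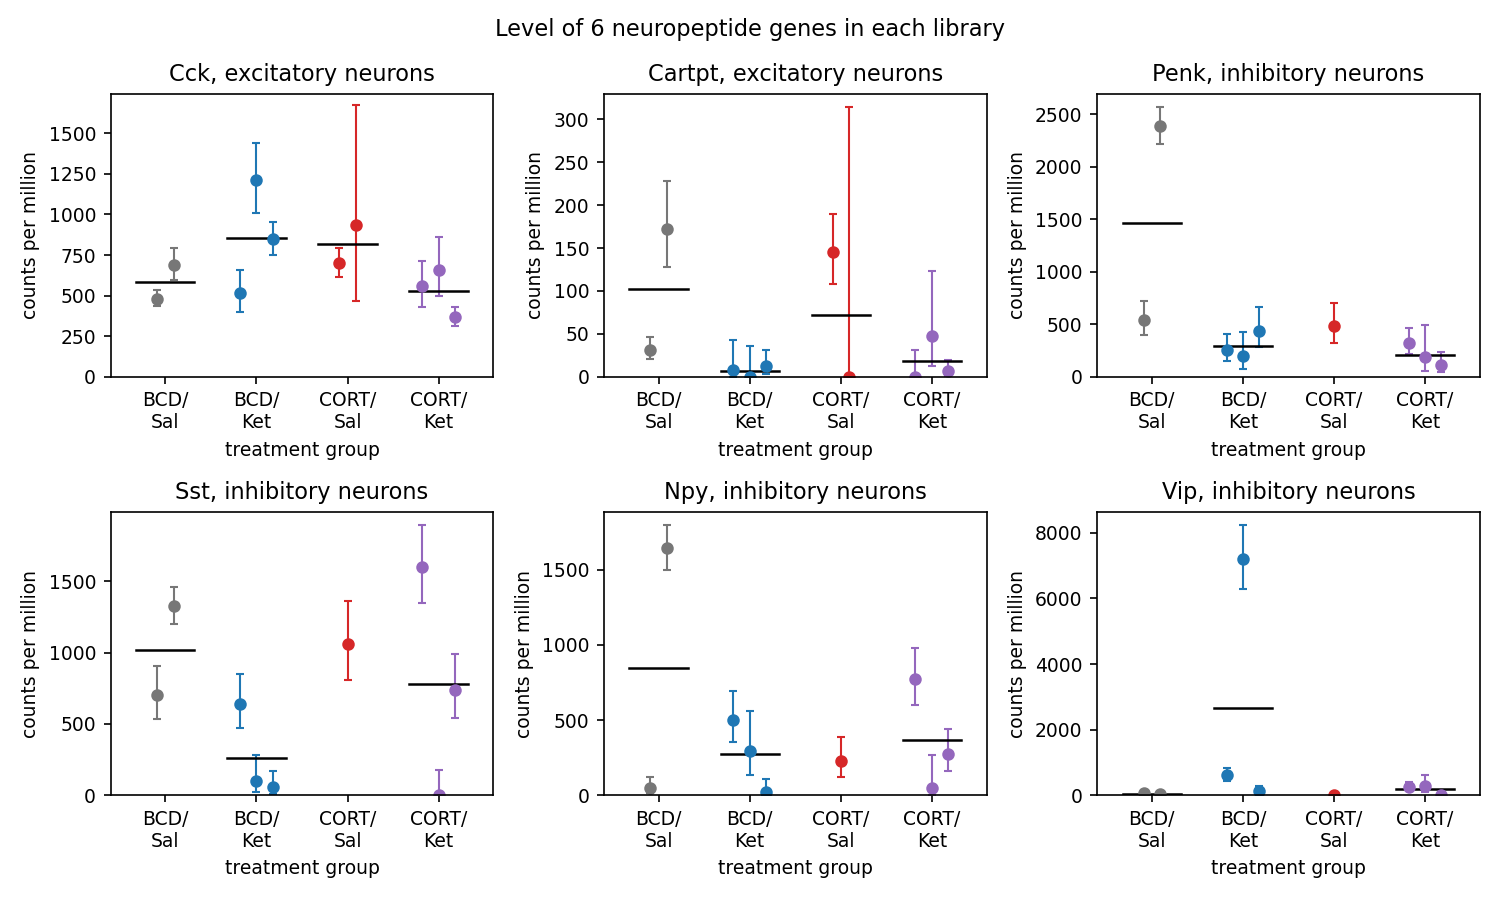
Points give the level of a gene (CPM) in each library with at least 10 barcodes of the class, by treatment group, with exact Poisson 95% intervals for counting error; black lines are group means where a group has more than 1 library. Single mice, such as 9947 for Penk (2389) and 9949 for Vip (7208), lie far from the rest of their groups.

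In inhibitory neurons only BCD/Ket against BCD/Sal and CORT/Ket against BCD/Ket could be tested, because mouse 9970 held 2 such barcodes and left CORT/Sal with 1 library. Of 3128 genes tested, 7 members were among them (Penk, Sst, Vip, Npy, Cck, Tac1 and Tac2). None passed, and 0% of all genes did, with 32 and 24 genes at an unadjusted p under 0.05 by edgeR and 19 and 20 by DESeq2.

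Penk in inhibitory neurons was highest in BCD/Sal. Its level was 540 and 2389 CPM in BCD/Sal, 258, 196 and 441 in BCD/Ket, 487 in mouse 9969 of CORT/Sal, and 323, 191 and 113 in CORT/Ket. Mouse 9970 had 1 Penk UMI in its 2 barcodes. Both BCD/Sal mice lay above all other libraries with at least 10 inhibitory barcodes. The log2 difference of BCD/Ket from BCD/Sal was -2.40 (SE 0.60, edgeR adjusted p = 1.00). Among alternatives that kept 2 libraries in each group of the contrast, it was past the threshold only without mouse 9967 of CORT/Ket (-2.36, edgeR adjusted p = 0.0394). That mouse is in the fit but not in the contrast. Without mouse 9901, which leaves mouse 9947 alone in BCD/Sal, the difference was -3.04. Without mouse 9947, which leaves mouse 9901 alone, it was -0.88.

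The share of striatal-like barcodes among inhibitory ones moved with Penk in mouse 9947: it was 71.2% there, 27.0% in mouse 9901, 52.6%, 41.7% and 61.8% in BCD/Ket, 47.4% in mouse 9969 and 40%, 54.5% and 44.2% in CORT/Ket. Within striatal-like barcodes alone, Penk stood at 1818 and 3812 CPM in BCD/Sal, at 426, 622 and 602 in BCD/Ket, at 882 in mouse 9969 and at 730, 96.6 and 293 in CORT/Ket. The BCD/Sal mice were again the highest, from 17 and 52 barcodes, of which 4 and 33 held a Penk UMI, with up to 34 and 182 in 1 barcode. All other libraries but mouse 9970 had 5 to 21 striatal-like barcodes.

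The interneuron peptides followed single barcodes. Sst in inhibitory neurons was 705 and 1326 CPM in BCD/Sal, 639, 97.8 and 57.5 in BCD/Ket, 1060 in mouse 9969, and 1601, 0 and 741 in CORT/Ket. Npy was 47.0 and 1641 in BCD/Sal, 503, 294 and 19.2 in BCD/Ket, 226 in mouse 9969, and 772, 47.8 and 274 in CORT/Ket. Levels thus spanned wide ranges within a group, and the groups overlapped for both genes. Vip was 70.5 and 30.2 in BCD/Sal, 612, 7208 and 134 in BCD/Ket, 0 in mouse 9969, and 265, 287 and 16.1 in CORT/Ket. The 3 BCD/Ket mice lay above both BCD/Sal mice (log2 difference 5.66, SE 2.19, edgeR adjusted p = 1.00). In mouse 9949 the level of 7208 rested on 3 of 12 barcodes, and without this mouse the difference was 2.89.

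Cck in inhibitory neurons rested on the same mouse. The log2 difference of BCD/Ket from BCD/Sal was 3.06 (SE 1.19, edgeR adjusted p = 1.00), and 0.69 without mouse 9949. In that mouse 85 of the 94 Cck UMIs were in the barcode that also held 107 Vip UMIs. Tac2 was at 23.5 and 20.1 CPM in BCD/Sal, 13.6, 2772 and 38.3 in BCD/Ket, 0 in mouse 9969 and 92.2, 717 and 209 in CORT/Ket. The Tac2 levels of the 3 CORT/Ket mice each rested on 1 to 3 barcodes.

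Whole libraries, in which barcodes over the mitochondrial limit are counted too, allowed all 10 members to be tested among 14259 genes. No member passed in any of 5 contrasts, and 0% of all genes did by edgeR, with 79 to 641 genes at an unadjusted p under 0.05. By DESeq2, 69 to 813 genes had an unadjusted p under 0.05, and 2 genes, neither of them a member, passed in CORT/Ket against BCD/Ket. In such sums fewer cells of a type and less RNA per cell cannot be told apart.

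Penk in whole libraries was set by mouse 9947. It stood at 45.02 and 775 CPM in BCD/Sal, 49.5, 31.9 and 38.7 in the BCD/Ket mice, 35.6 and 40.4 in the CORT/Sal mice and 120, 8.83 and 29.0 in the CORT/Ket mice. Apart from mouse 9947 the groups overlapped. Log2 differences were -3.41 for CORT/Sal against BCD/Sal (SE 1.24, edgeR adjusted p = 0.719) and -3.34 for BCD/Ket against BCD/Sal (SE 1.07, edgeR adjusted p = 1.00), and without mouse 9947 they were -0.18 and -0.11. The difference of the ketamine effects for Penk was 3.66 (SE 1.55, edgeR adjusted p = 0.985), and 0.40 without that mouse.

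The markers of striatal projection neurons moved with it. Summed over all 15 listed markers, they stood at 875 and 2085 CPM in BCD/Sal, 884, 698 and 796 in the BCD/Ket mice, 750 and 721 in the CORT/Sal mice and 1267, 591 and 713 in the CORT/Ket mice, so that mouse 9947 was highest here too, followed by mouse 9967, the second highest in Penk. All 15 had a UMI in the inhibitory neurons of mouse 9947, which held 73 such barcodes. Mouse 9968, the lowest in Penk, held 11, and Adora2a, Drd1 and Drd2 were among the markers with no UMI there. Drd2 also had none in the inhibitory neurons of mice 9901, 9946, 9967 and 9970, Drd1 none in 9949 and 9970, and Adora2a none in 9970. The part of barcode number in these zeros was not tested. The 19 inhibitory markers stood at 870 and 1868 CPM in BCD/Sal and 723 to 1742 in the other libraries. Summed astrocyte markers were at 620 CPM in mouse 9947, 1013 in 9946 and 2675 in 9967, and at 4219 to 10199 in the other libraries. Microglial markers were at 29.5, 29.9 and 455 CPM in those mice, and at 962 to 6009 in the others. The part of neuronal and glial markers in the Penk difference was not tested.

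Of the remaining members in whole libraries, Pdyn, Sst, Npy, Tac1 and Cartpt were also highest in mouse 9947, while Vip and Tac2 were highest in mouse 9949, Crh in 9967 and Cck in 9970. Pdyn stood at 4.07 and 37.1 CPM in BCD/Sal, 4.27, 3.23 and 4.47 in the BCD/Ket mice, 5.29 and 7.24 in the CORT/Sal mice and 16.2, 2.70 and 1.61 in the CORT/Ket mice, with mice 9947 and 9967 again the highest. Its log2 difference of BCD/Ket from BCD/Sal was -2.27 (SE 0.95, edgeR adjusted p = 1.00), and 0.035 without mouse 9947. Sst stood at 72.7 and 371 CPM in BCD/Sal, 167, 63.1 and 88.6 in the BCD/Ket mice, 40.7 and 331 in the CORT/Sal mice and 355, 47.6 and 46.2 in the CORT/Ket mice.

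Npy ran from 12.7 to 396 CPM, Tac1 from 8.87 to 123 and Vip from 2.24 to 52.4. The level of Cck in whole libraries was 260 and 388 CPM in BCD/Sal, 294, 258 and 274 in the BCD/Ket mice, 215 and 492 in the CORT/Sal mice and 451, 280 and 226 in the CORT/Ket mice. Cartpt stood at 13.6 and 59.8 CPM in BCD/Sal, 9.39, 4.96 and 13.9 in the BCD/Ket mice, 22.2 and 16.2 in the CORT/Sal mice and 12.2, 8.59 and 5.37 in the CORT/Ket mice. Its log2 difference of BCD/Ket from BCD/Sal was -1.90 (SE 0.62, edgeR adjusted p = 1.00), and -0.47 without mouse 9947. Tac2 was 3.86 to 25.6 CPM and Crh 0.496 to 12.2 CPM, on 6 to 119 and 2 to 12 UMIs per library.

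Other genes of the peptide system were tested in the same fits, from 4 lists, and none passed in any class or contrast. Of 36 other neuropeptide genes 35 were measured, and 3 were tested in excitatory neurons, 2 in inhibitory neurons and 16 in whole libraries. The highest were Vgf, a granin-like precursor (255 CPM in inhibitory and 173 in excitatory neurons), Pnoc (78.2 CPM in inhibitory neurons) and Trh, the thyrotropin-releasing hormone precursor (55.0 CPM in excitatory neurons). Cort, a relative of Sst, was in interneuron-like barcodes at 87.7 CPM and in striatal-like ones at 2.55.

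The machinery that makes peptides was found in every neuron class. Of 15 genes of processing and dense-core vesicles, 14, 13 and 15 were tested. Pcsk1n, an inhibitor of the prohormone convertases, stood at 877 CPM in inhibitory and 746 in excitatory neurons, Cpe, the carboxypeptidase that trims peptides, at 545 and 851, and Chgb, a vesicle granin, at 265 and 759. Cpe was as high in non-neuronal barcodes (829 CPM), unlike Chgb (14.5). Of 23 receptor genes, 5, 2 and 17 were tested, and the highest were Adcyap1r1, the receptor of the peptide PACAP (86.0 CPM in inhibitory neurons), the binding protein gene Crhbp (58.6) and Oprk1, the dynorphin receptor (53.4). Of the 39 genes used above as partners in neurons, 18, 22 and 37 were tested.

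In whole libraries the lists lay lower in both comparisons with BCD/Sal without any gene passing. Medians of CORT/Sal against BCD/Sal were -0.91 on the log2 scale for the 10 members, -0.42 for the other neuropeptides, -0.58 for processing, -0.50 for receptors and -0.65 for partner genes, beside 0.04 for all genes. For BCD/Ket against BCD/Sal they were -1.41, -0.42, -0.50, -0.73 and -0.52, beside 0.01 for all genes. Both comparisons use the same BCD/Sal mice. Of these, 9947 had the highest summed inhibitory (1868 CPM), striatal (2085 CPM) and excitatory markers (8628 CPM) of the 10 libraries. The same mouse had the lowest summed astrocyte (620 CPM) and microglial markers (29.5 CPM), against 7608 and 3037 in mouse 9901. The part of cell composition in these medians was not tested. CORT/Sal here includes mouse 9970, and medians without that mouse are not given.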

How the data were processed

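Single-cell libraries (10x Chromium) of the BLA of 10 mice were analysed; the other libraries of the series were not analysed here. The authors deposited raw counts of UMIs for each gene in each barcode, from Cell Ranger (3.0.2 by the file header) on mm9, and Seurat 3.1.1 is named in the submitters' notes. No batch is named. Members and lists were chosen with earlier results of these data known.

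Barcodes with at most 12.5% mitochondrial UMIs and at least 200 genes were clustered without the members (scanpy 1.11.5, leidenalg 0.10.2, 2000 variable genes, 30 components, 20 neighbours, resolution 0.8). Clusters took the name of a marker list of which 3 genes and 25% were in 10% of barcodes and raised 2-fold, unless over 90% came from 1 library; this rule was set after the clusters were seen. No doublets were removed. Barcodes were thinned to 1000 UMIs where shares were compared. Counts were summed per mouse and class (at least 10 barcodes, 2 libraries per group) and tested in 1 fit of 4 groups with edgeR 4.0.16 (TMM, filterByExpr, robust; R 4.3.3), with DESeq2 1.42.0 as the alternative. In simulated counts at the same depth, 4-fold changes were recovered in 26% to 56% of 50 genes in excitatory neurons, 24% and 32% in inhibitory neurons and 30% to 56% in whole libraries. These counts were drawn with 1 common spread for all genes of a class, so recovery for members with a wider spread was not measured. Intervals are exact Poisson or binomial (95%), or log2 difference and 1.96 SE for contrasts. All 10 members were named. List genes were named when among the highest of their list or when partners of a member, and the 3 genes most like a member when mean r was at least 0.2, with a UMI in 20 neurons and values in at least 50% of the libraries with the member. Alternatives were RLE factors, all genes with a count, fits of 2 groups, each library left out, at most 5% mitochondrial UMIs, at least 500 genes, doublet scores, at least 30 barcodes, other resolutions (0.4, 1.2), members in the clustering, marker-gated neurons and other thinning. Some genes of the lists are not reported here.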

Additional observations from a re-analysis of the deposited data

How the results depend on the processing

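For 16 named differences of members, 297 alternative values were computed, of which 290 kept their direction and 7 reversed. Those that reversed were Cck in excitatory neurons for CORT/Sal against BCD/Sal, at -0.13 with neurons gated by marker UMIs, -0.19 with only excitatory cluster 7 (an alternative chosen after seeing the data), -0.17 without mouse 9901 and -0.25 without mouse 9969; Cck for CORT/Ket against CORT/Sal, at 0.033 without mouse 9969; Cartpt for CORT/Ket against CORT/Sal, at 4.69 without mouse 9969, a value that rests on a group with no Cartpt UMI and so gives neither size nor direction; and Pdyn in whole libraries for BCD/Ket against BCD/Sal, at 0.035 without mouse 9947. Leaving out 1 mouse at a time, these 4 differences ranged from -0.25 to 0.33, -0.47 to 0.033, -4.38 to 4.69 and -3.19 to 0.035. Counts of members called were 0 in all main fits. Without a filter on low counts 1 member (Cartpt) was called in excitatory neurons for CORT/Ket against CORT/Sal and 1 for BCD/Ket against BCD/Sal. Leaving out 1 mouse at a time, with 2 libraries kept in each group of the contrast, gave 0 members for BCD/Ket against BCD/Sal in excitatory neurons. In inhibitory neurons it gave 0 to 1 (Penk without 9967). Members called in fits that leave 1 library in a group of the contrast are not counted here. The cause of these changes was not tested. How many of all genes were called in the same alternative fits is not given here, so these counts do not set the members apart. Over its alternatives the Penk difference ran from -3.04 to -0.88 in inhibitory neurons (BCD/Ket against BCD/Sal), and from -4.44 to -0.11 in whole libraries. In inhibitory neurons (BCD/Ket against BCD/Sal) the Vip difference ran from 2.35 to 6.42 and that of Cck was as low as 0.69, and in whole libraries that of Cartpt ran from -4.32 to -0.47. Pooled levels of the neuron classes were also computed without each library in turn, an alternative chosen after seeing the data.

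Pairs that met the rule numbered 7, against 4 at 500 UMIs (3 shared), 4 without striatal-like barcodes (4 shared), 10 without thinning (4 shared) and 7 with the 85 highest doublet scores removed (the same 7). Sst with Npy, Sst with Tac1 and Vip with Tac2 met it in all of these settings. Pdyn with Tac1 did not at 500 UMIs or without striatal-like barcodes. Cck with Cartpt, Cck with Tac2 and Penk with Tac2 did not at 500 UMIs or without thinning. At Leiden resolution 0.4 inhibitory and excitatory neurons formed 1 cluster, so inhibitory neurons had no value there. Fits without a saline mouse leave a group with 1 library, which is assumed to vary like the others. No paired analysis was possible because the groups share no replicate numbers: each mouse has its own number. Depth limits Crh and Pdyn most, with 27 and 52 UMIs in kept barcodes outside mouse 9970.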

Other observations

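Barcodes over the mitochondrial limit also carried peptide RNA. In mouse 9986 of BCD/Ket, 1 such barcode held 233 Sst UMIs, more than any kept barcode. In the cluster that came almost whole from mouse 9970, 41.4% of 2348 barcodes held 1 of the 10 genes and 27.4% held 2, against 31.0% and 7.99% of the neurons. Barcodes of mouse 9970 in that cluster held at most 2 UMIs of Vip or Cartpt and at most 1 of Pdyn, Crh or Tac2. These are shares of barcodes with a UMI and not levels per barcode.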
